A study of Mus musculus with 9 samples.

Results

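The SLAM family receptors described here are Slamf7, Slamf8, Slamf9, Cd48 and Cd84, chosen as the rows of the deposited RNA table with those gene symbols. All 5 of these symbols were among the 18042 genes in the table, and all 5 passed the filter on low counts that left 13090 genes for testing. RNA came from macrophages sorted as CD11b+ F4/80+ cells out of subcutaneous MC38 tumours, MC38 being a mouse colon carcinoma line. The hosts were wild-type female C57BL/6 mice aged 6 to 8 weeks, injected with 1000000 MC38 cells and assigned to a group on day 9. In the IN@OMVs group the tumours were injected with IN@OMVs, and in the OMVs group with OMVs, each at 12.5 µg of vesicle protein per mouse (625 µg per kg). Control tumours received an equal volume of solvent, which one label calls PBS. OMVs commonly stands for outer membrane vesicles, the particles that Gram-negative bacteria shed, and the sources used here do not spell out IN. Each group had 3 libraries. The labels call them biological replicates without giving the number of mice behind each, so the p-values measure only the spread between these libraries.

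SLAM receptors are immunoglobulin-superfamily proteins on the surface of blood cells, and most of them bind the same receptor on a neighbouring cell. CD48 is an exception: it is held in the membrane by a lipid anchor and binds CD244 and CD2. The tails of several members carry tyrosine motifs that recruit small adapters of the SAP family, whereas SLAMF8 and SLAMF9 have short tails without that motif. In macrophages, SLAMF7 is known for promoting the engulfment of blood tumour cells together with the integrin Mac-1, and SLAMF8 for limiting the oxidative burst of the phagocyte NADPH oxidase. SLAMF8 is also known to be induced in phagocytes by interferon-gamma and by bacteria.

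The genes lie on mouse chromosome 1, and the interval holds 9 SLAM receptor genes. In the GRCm38 annotation of GENCODE M21, 7 of them form a continuous cluster in the order Cd244a, Ly9, Slamf7, Cd48, Slamf1, Cd84 and Slamf6, while Slamf9 and Slamf8 lie 522 kb beyond Slamf6 and are separated from each other by 103 kb. Promoter windows, from 250 bases before to 50 bases after the gene start, were taken from RefSeq on GRCm38.p6. A window was found for each of the 5 members. Those of Slamf7, Slamf8, Slamf9 and Cd84 are shown, because the first 3 differed between groups and Cd84 serves as a family member with no called difference. The core GAAANNGAA of the interferon-stimulated response element, which IRF factors bind, was searched on both strands. Capitals mark a match to the response element core, written as it reads on the gene's strand, 5′ to 3′.
Slamf8 promoter, chr1:172590519-172590818, minus strand: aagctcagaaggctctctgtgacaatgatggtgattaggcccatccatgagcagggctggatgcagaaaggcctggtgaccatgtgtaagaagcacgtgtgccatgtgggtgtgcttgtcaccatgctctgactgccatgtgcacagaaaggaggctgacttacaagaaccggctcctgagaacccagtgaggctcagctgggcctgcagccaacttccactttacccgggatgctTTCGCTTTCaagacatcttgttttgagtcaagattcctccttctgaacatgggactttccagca
Slamf7 promoter, chr1:171648950-171649249, minus strand: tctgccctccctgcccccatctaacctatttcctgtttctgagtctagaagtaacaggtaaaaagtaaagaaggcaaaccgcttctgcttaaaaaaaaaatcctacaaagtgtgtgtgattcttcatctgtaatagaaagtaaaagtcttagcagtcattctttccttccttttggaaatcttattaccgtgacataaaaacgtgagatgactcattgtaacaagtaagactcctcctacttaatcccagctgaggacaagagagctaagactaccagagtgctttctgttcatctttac
Slamf9 promoter, chr1:172475110-172475409, plus strand: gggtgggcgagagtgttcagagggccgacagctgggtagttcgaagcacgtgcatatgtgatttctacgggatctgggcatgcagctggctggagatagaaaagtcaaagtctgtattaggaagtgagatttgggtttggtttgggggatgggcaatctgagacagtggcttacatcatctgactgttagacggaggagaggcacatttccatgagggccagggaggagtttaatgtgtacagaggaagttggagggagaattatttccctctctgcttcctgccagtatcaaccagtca
Cd84 promoter, chr1:171839447-171839746, plus strand: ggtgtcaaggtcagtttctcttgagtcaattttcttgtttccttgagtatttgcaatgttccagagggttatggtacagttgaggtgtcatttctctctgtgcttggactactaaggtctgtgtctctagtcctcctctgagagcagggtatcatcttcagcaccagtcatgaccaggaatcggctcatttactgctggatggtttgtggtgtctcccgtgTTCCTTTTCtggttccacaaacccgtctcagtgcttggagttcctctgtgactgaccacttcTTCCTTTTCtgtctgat

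The Slamf8 window held 1 match to the response element core, TTCGCTTTC, at bases -14 to -6 from the gene start. The Cd84 window held 2 matches, both TTCCTTTTC, at bases -29 to -21 and 34 to 42. The windows of Slamf7, Slamf9 and Cd48 held no match to it. Over all 32851 promoter windows of the same length, 8.56% held the response element core. A match is a description of these letters, and binding was not measured.

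The libraries held 16813230 to 17288322 expected counts each. All 11 macrophage markers were detected in every library, among them the sort markers Itgam, which encodes CD11b, and Adgre1, which encodes F4/80. The markers summed to 14160 to 19900 CPM (counts divided by the TMM-scaled library size and multiplied by 1000000) in IN@OMVs, 14380 to 18930 CPM in OMVs and 14660 to 15750 CPM in Control. IN@OMVs 1 and OMVs 3 gave the 2 highest sums, and IN@OMVs 1 stood apart from the other libraries of its group over all genes. Transcripts of other cells also varied within groups. The 13 T cell markers in the table summed to 314, 271 and 303 CPM in library 1 of IN@OMVs, OMVs and Control, against 94.3 to 176 CPM in the other 6 libraries. Il7r, part of that sum, differed by group instead, with means of 74.8, 63.1 and 51.3 CPM in IN@OMVs, OMVs and Control. Neutrophil markers moved with the groups: they summed to 129 to 196 CPM in IN@OMVs, 551 to 732 CPM in OMVs and 772 to 1129 CPM in Control.

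Slamf8 was the member that differed most between groups. It stood at 143, 115 and 112 CPM in IN@OMVs 1, 2 and 3, at 78.0, 84.6 and 94.1 CPM in OMVs, and at 47.1, 42.3 and 41.8 CPM in Control. The 3 groups did not overlap, with every IN@OMVs library above every OMVs library and every OMVs library above every Control library. Against Control, Slamf8 rose by a log2 fold change of 1.49 ± 0.11 SE in IN@OMVs (2.82-fold, adjusted p = 0.000121 by edgeR) and by 0.97 ± 0.11 in OMVs (1.96-fold, adjusted p = 0.0234). Between the vesicle groups it was higher in IN@OMVs by 0.53 ± 0.11 (1.44-fold, adjusted p = 0.0348). Both comparisons with Control use the same 3 Control libraries. In RNA from bulk sorted cells, more cells of one type and more RNA per cell cannot be told apart.

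The rise in IN@OMVs over Control kept its call when any of the 9 libraries was left out, with a log2 fold change of 1.37 to 1.56. The other Slamf8 calls were lost in most omissions. For OMVs against Control the adjusted p (edgeR) was 0.052 without IN@OMVs 3, 0.0998 without OMVs 2, 0.0873 without OMVs 3, 0.058 without Control 1, 0.149 without Control 2 and 0.129 without Control 3, while the log2 fold change stayed between 0.89 and 1.03. For IN@OMVs against OMVs the call was kept only without IN@OMVs 1 (0.41, adjusted p = 0.0148). The 8 other omissions gave adjusted p = 0.0529 without IN@OMVs 2, 0.057 without IN@OMVs 3, 0.14 without OMVs 1, 0.141 without OMVs 2, 0.0574 without OMVs 3, 0.051 without Control 1, 0.0707 without Control 2 and 0.0795 without Control 3. Control libraries are not part of this difference, and its log2 fold change stayed at 0.53 when any of them was left out.

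Slamf7 encodes the receptor linked to Mac-1-dependent phagocytosis. Its level was 97.0, 69.5 and 76.3 CPM in IN@OMVs 1, 2 and 3, 42.1, 44.8 and 55.7 CPM in OMVs, and 37.3, 33.8 and 35.7 CPM in Control. All IN@OMVs libraries lay above the other 6, and the OMVs libraries lay above those of Control by a narrower gap. Slamf7 rose in IN@OMVs against Control by a log2 fold change of 1.18 ± 0.14 SE (2.27-fold, adjusted p = 0.00126 by edgeR). It was also higher in IN@OMVs than in OMVs, by 0.77 ± 0.14 (1.70-fold, adjusted p = 0.0202). In OMVs against Control the log2 fold change was 0.42 ± 0.14 and did not pass (adjusted p = 0.378, 95% interval 0.10 to 0.73).

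The Slamf7 call against Control held in each of the 9 omissions, with a log2 fold change of 1.03 to 1.28. The call against OMVs ended without IN@OMVs 3 (adjusted p = 0.0575 by edgeR), OMVs 1 (0.0871), OMVs 2 (0.0962) or Control 3 (0.0513). Slamf7 is also a receptor of natural killer cells. The summed level of the 9 natural killer markers was 121, 48.5 and 70.0 CPM in IN@OMVs 1, 2 and 3, 92.6, 30.4 and 34.5 CPM in OMVs, and 119, 30.6 and 28.6 CPM in Control. Library 1 of each group had the highest sum. No natural killer marker of the 8 tested was called by edgeR, DESeq2 or limma, with 1 at an unadjusted edgeR p under 0.05 in IN@OMVs against Control and 1 in IN@OMVs against OMVs. Klrk1, which encodes the activating receptor NKG2D and made up much of the sum, had 64.1, 34.0 and 44.1 CPM in IN@OMVs 1, 2 and 3, 32.6, 16.8 and 18.0 CPM in OMVs, and 35.8, 16.1 and 13.8 CPM in Control. Its IN@OMVs libraries lay above those of OMVs, as for Slamf7, and overlapped with Control. The defining marker Ncr1 averaged 0.638 CPM in IN@OMVs, 0.364 CPM in OMVs and 0.632 CPM in Control. The part of natural killer cells in the Slamf7 level was not tested.

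Slamf9, a family member with a short tail found on macrophages and dendritic cells, did not follow the order of Slamf7 and Slamf8. It stood at 129, 81.1 and 78.4 CPM in IN@OMVs 1, 2 and 3, at 54.6, 50.6 and 59.5 CPM in OMVs, and at 66.7, 72.2 and 69.4 CPM in Control. The 3 groups did not overlap, and here the OMVs libraries were the lowest and Control lay between. Slamf9 was higher in IN@OMVs than in OMVs by a log2 fold change of 0.81 ± 0.17 SE (1.75-fold, adjusted p = 0.045 by edgeR). Against Control neither vesicle group passed: the log2 fold change was 0.47 ± 0.17 in IN@OMVs (adjusted p = 0.166) and -0.34 ± 0.18 in OMVs (adjusted p = 0.693).

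A single library, IN@OMVs 1, carried much of the Slamf9 spread. Without it the Slamf9 log2 fold change was 0.54 for IN@OMVs against OMVs (adjusted p = 0.00167 by edgeR) and 0.20 for IN@OMVs against Control, which stayed uncalled. Without it the OMVs libraries were called lower than Control (-0.34, adjusted p = 0.0283). The call between the vesicle groups ended without OMVs 1 (adjusted p = 0.159), OMVs 2 (0.191), OMVs 3 (0.109), Control 1 (0.0769), Control 2 (0.088) or Control 3 (0.1).

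**Figure D1:**
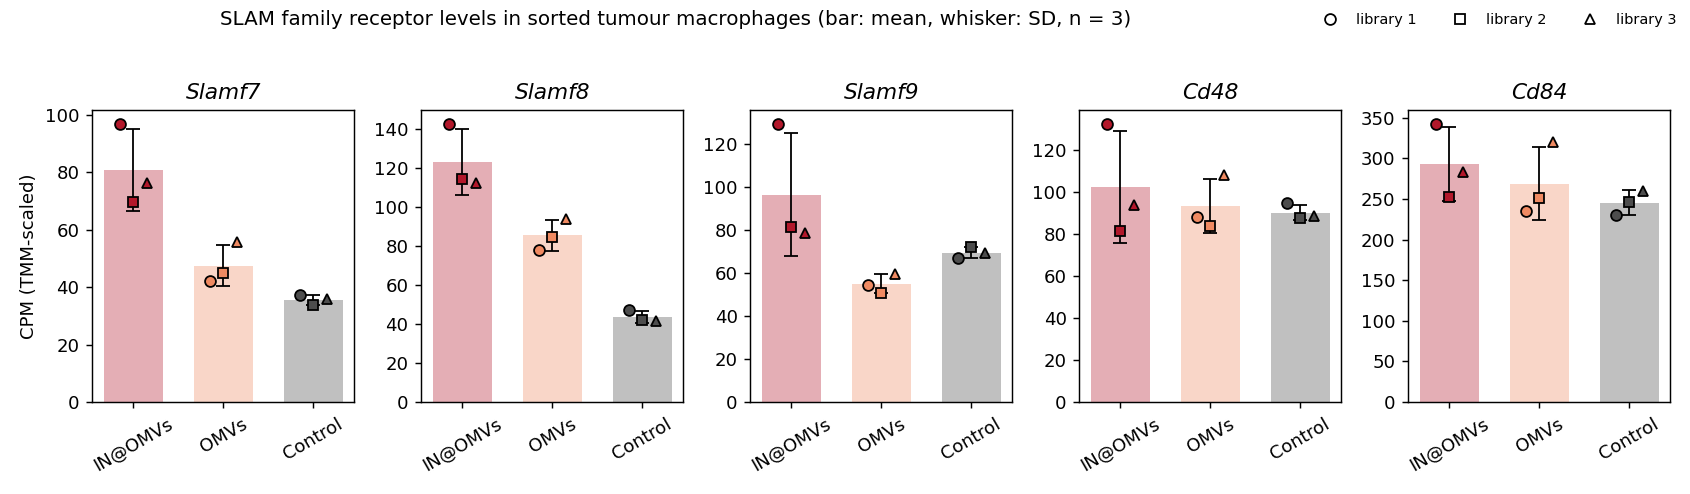
CPM of the 5 SLAM receptors in each library (points, shaped by library number), with the group mean (bar) and SD (whisker, n = 3). Slamf8 runs from 41.8 to 47.1 CPM in Control, below all vesicle libraries, whereas the groups overlap for Cd48 and Cd84.

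Cd48 and Cd84 showed no called difference. Cd48, the ligand of CD244 and CD2, had 133, 81.5 and 93.7 CPM in IN@OMVs 1, 2 and 3, 88.4, 83.7 and 108 CPM in OMVs, and 94.6, 87.8 and 88.5 CPM in Control. The groups overlapped, and IN@OMVs held both the highest and the lowest library. The log2 fold change of Cd48 was 0.18 (95% interval -0.19 to 0.56, adjusted p = 0.617 by edgeR) in IN@OMVs against Control and 0.05 (-0.33 to 0.43, adjusted p = 0.999) in OMVs against Control. Between IN@OMVs and OMVs it was 0.14 (-0.24 to 0.51, adjusted p = 0.796).

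Cd84, a receptor that binds CD84 on other cells, had 343, 253 and 283 CPM in IN@OMVs 1, 2 and 3. It had 235, 252 and 320 CPM in OMVs, and 230, 247 and 260 CPM in Control. These groups overlapped too, with the highest values in IN@OMVs 1 and OMVs 3, the libraries that also had the most macrophage marker RNA. The log2 fold change of Cd84 was 0.25 (95% interval -0.06 to 0.56, adjusted p = 0.359 by edgeR) in IN@OMVs against Control. It was 0.13 (-0.18 to 0.44, adjusted p = 0.926) in OMVs against Control and 0.12 (-0.19 to 0.43, adjusted p = 0.769) in IN@OMVs against OMVs. A log2 fold change of 1 in either direction lay outside these intervals for both genes in all 3 comparisons.

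Counted over the family members, 2 of 5 were called in IN@OMVs against Control (Slamf7 and Slamf8), where 6.55% of all 13090 tested genes were called, 3.32% of them as higher and 3.24% as lower. In OMVs against Control, 1 of 5 was called (Slamf8), against a background of 0.42% of genes, 0.298% higher and 0.122% lower. In IN@OMVs against OMVs, 3 of 5 were called (Slamf7, Slamf8 and Slamf9), against 2.85% of genes, 1.1% higher and 1.75% lower. All called members were higher in the group named first. The 5 members were chosen with earlier results of these data known, so these counts are not an independent result. The other 4 receptors of the family had no call in any comparison by edgeR over all libraries with TMM scaling. With only IN@OMVs and OMVs fitted, the calls between them ended for Slamf7 (adjusted p = 0.0792 by edgeR), Slamf8 (0.106) and Slamf9 (0.146), and the Slamf9 call also ended by limma (0.0515) and the Slamf8 call with libraries scaled to macrophage markers (0.0569), a scaling chosen after seeing the data. The background for OMVs against Control was itself unstable: 55 genes were called, and 20 with the replicate number as a block, a fit in which Slamf8 was still called (adjusted p = 0.042). Without OMVs 2, OMVs 3, Control 2 or Control 3 edgeR called no gene there, with 734, 942, 787 and 803 genes at an unadjusted p under 0.05, and without IN@OMVs 3 or Control 1 it called 1 and 5. Over all libraries DESeq2 called 207.

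**Figure D2:**
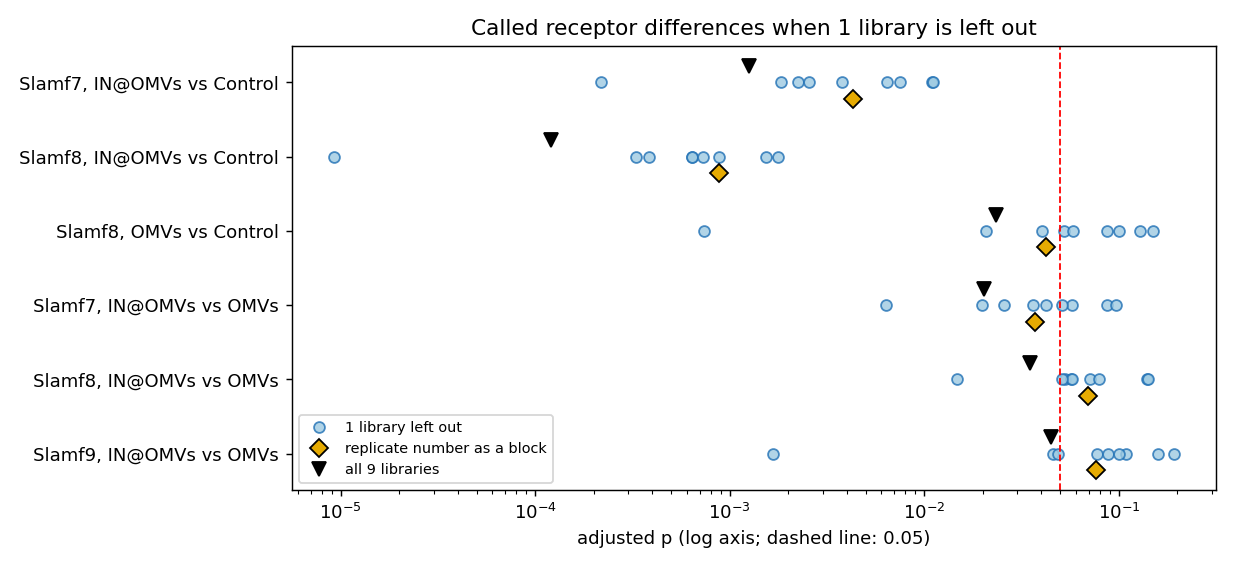
Adjusted p (log axis) of the 6 called receptor differences, over all 9 libraries (triangles), with the replicate number as a block (diamonds) and with each library left out (circles). The circles of Slamf7 and Slamf8 for IN@OMVs against Control stay at or under 0.0111, and those of the other 4 differences fall on both sides of 0.05.

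Because IN@OMVs 1 and OMVs 3 were high for most members, the receptors were also set against Cd84 of the same library, a ratio chosen after the values were seen and given with no test. Such a ratio does not depend on the scaling of a library. The ratio of Slamf7 to Cd84 CPM was 0.283, 0.275 and 0.270 in the IN@OMVs libraries, 0.179, 0.178 and 0.174 in the OMVs libraries, and 0.162, 0.137 and 0.137 in Control. The ratio of Slamf8 to Cd84 was 0.417, 0.454 and 0.396 in the IN@OMVs libraries, 0.332, 0.336 and 0.294 in the OMVs libraries, and 0.205, 0.171 and 0.161 in Control. In both ratios the groups were ordered as in the levels themselves and did not overlap, and relative to its mean each ratio spread less within IN@OMVs than the level did.

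For Slamf9 the ratio to Cd84 was 0.377, 0.321 and 0.277 in the IN@OMVs libraries, 0.232, 0.201 and 0.186 in the OMVs libraries, and 0.290, 0.292 and 0.267 in Control. IN@OMVs and Control overlapped in this ratio, and the OMVs libraries lay below both. The ratio of Cd48 to Cd84 was 0.387, 0.323 and 0.331 in the IN@OMVs libraries, 0.376, 0.332 and 0.338 in the OMVs libraries, and 0.411, 0.356 and 0.340 in Control. Here library 1 was the highest in each group, and these are the 3 libraries with the highest T cell marker sums. Both genes enter this ratio, and Cd84 was lowest in library 1 of OMVs (235 CPM) and of Control (230 CPM). Cd48 itself was highest in library 1 of IN@OMVs (133 CPM) and of Control (94.6 CPM). In OMVs it was highest in library 3 (108 CPM), against 88.4 CPM in library 1. CD48 is found on lymphocytes as well as on macrophages, and the part of T cell RNA in the Cd48 level was not tested.

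**Figure D3:**
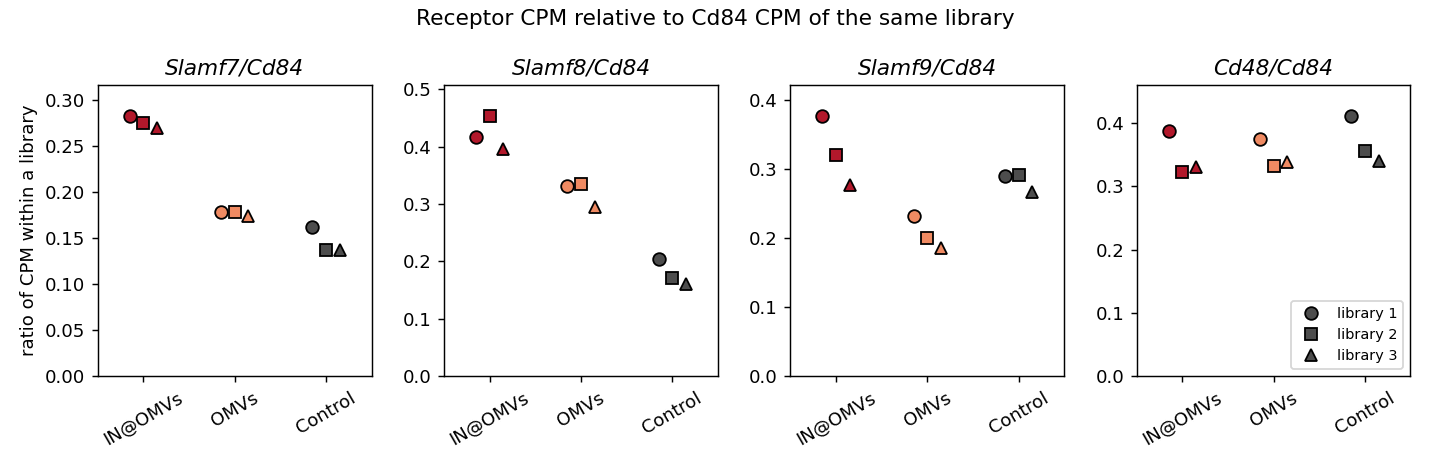
Ratio of Slamf7, Slamf8, Slamf9 and Cd48 CPM to the Cd84 CPM of the same library, by group, each axis starting at 0. The IN@OMVs libraries of the first panel lie between 0.270 and 0.283 and the OMVs libraries between 0.174 and 0.179.

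Levels of different genes were compared per kilobase of annotated exon (union of protein-coding transcripts in GENCODE M21), which takes all annotated isoforms as one length. On that scale the order in Control was Cd48 at 75.9 ± 3.15 CPM per kb, Slamf9 at 52.9 ± 2.10, Cd84 at 39.2 ± 2.38, Slamf8 at 26.4 ± 1.77 and Slamf7 at 7.78 ± 0.38 (SD, n = 3). In IN@OMVs the order was Cd48 at 86.3 ± 22.5, Slamf8 at 74.3 ± 10.3, Slamf9 at 73.3 ± 21.8, Cd84 at 46.7 ± 7.33 and Slamf7 at 17.7 ± 3.13 CPM per kb. The first 3 of these lay within their spread of each other. In OMVs, Cd48 stood at 78.5 ± 10.9, Slamf8 at 51.6 ± 4.87, Cd84 at 42.9 ± 7.13, Slamf9 at 41.8 ± 3.42 and Slamf7 at 10.4 ± 1.57 CPM per kb. Cd84 and Slamf9 did not differ beyond their spread there. The mean of Slamf8 was thus above that of Cd84 in both vesicle groups and below it in Control, but in OMVs their SD ranges overlapped. In Control every neighbouring pair in the order differed by more than its SDs.

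The other 4 receptors of the family, Slamf1, Ly9, Cd244a and Slamf6, had no call in any comparison by edgeR over all libraries with TMM scaling. In that fit 3, 1 and 1 were at an unadjusted p under 0.05 in IN@OMVs against Control, OMVs against Control and IN@OMVs against OMVs. Cd244a, the receptor for CD48 known from natural killer cells, had 34.4, 22.5 and 23.3 CPM in IN@OMVs 1, 2 and 3, 30.7, 28.9 and 33.9 CPM in OMVs, and 43.9, 37.9 and 36.5 CPM in Control. All vesicle libraries lay below all Control libraries. Its log2 fold change in IN@OMVs against Control was -0.56 ± 0.16 SE (adjusted p = 0.0745 by edgeR), and it was called lower without IN@OMVs 1 (-0.79, adjusted p = 0.000619) and by DESeq2 (-0.57, adjusted p = 0.0183). With libraries scaled to macrophage markers Cd244a was also called lower (-0.67, adjusted p = 0.0301 by edgeR). In OMVs against Control its log2 fold change was -0.34 ± 0.16 (adjusted p = 0.616). In GENCODE M21 Cd244a overlaps Ly9 on the opposite strand, and no source used here says whether counting used strand, so reads in the stretch they share cannot be told apart.

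Slamf6 was at 36.1, 23.7 and 26.7 CPM in IN@OMVs 1, 2 and 3, 26.4, 28.3 and 33.7 CPM in OMVs, and 21.8, 21.9 and 21.8 CPM in Control. Both vesicle groups lay above Control, with log2 fold changes of 0.40 ± 0.15 for IN@OMVs (adjusted p = 0.182 by edgeR) and 0.43 ± 0.15 for OMVs (adjusted p = 0.423). Without IN@OMVs 1 the OMVs difference passed (0.43, adjusted p = 0.0477). Ly9, also called CD229, averaged 59.4 ± 11.5 CPM in IN@OMVs, 55.2 ± 6.89 CPM in OMVs and 47.3 ± 2.31 CPM in Control (SD, n = 3 each), with log2 fold changes of 0.33 ± 0.14 and 0.22 ± 0.14 against Control.

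Slamf1, the founding member, was near the lower limit of detection. It had 33, 12 and 18 expected counts in IN@OMVs 1, 2 and 3, 66, 55 and 49 counts in OMVs, and 65, 23 and 27 counts in Control. The IN@OMVs libraries lay below those of OMVs, with a log2 fold change of -1.40 ± 0.48 that did not pass (adjusted p = 0.21 by edgeR). Without IN@OMVs 1 it was called lower (-1.93, adjusted p = 0.041). Library 1, with the highest T cell marker sum in each group, also had the highest Slamf1 count in each group. Between groups the orders differed. OMVs 2 and 3 had 55 and 49 counts at T cell marker sums of 106.5 and 129.5 CPM, whereas IN@OMVs 1 had 33 counts at 313.7 CPM. The part of other cells in these counts was not tested.

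**Figure D4:**
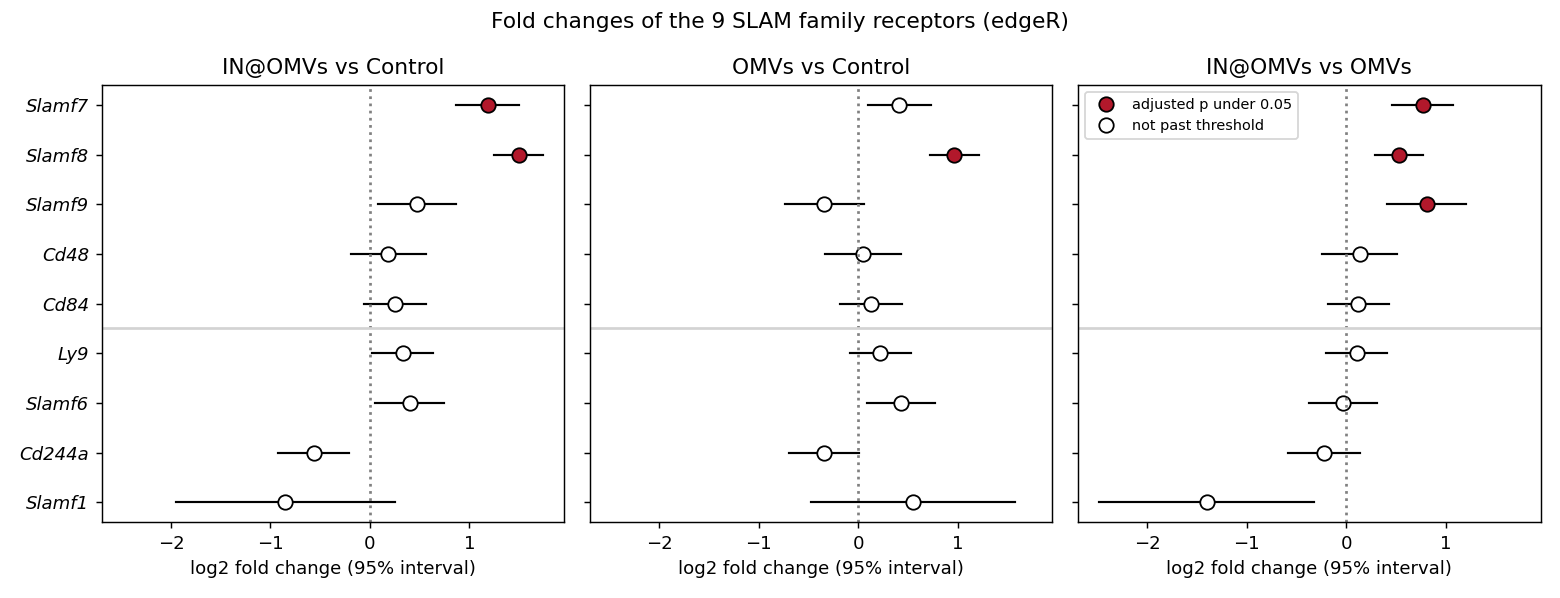
Log2 fold change with its 95% interval for the 9 receptors in the 3 comparisons, with filled points for an adjusted p under 0.05. Filled points appear for Slamf7 and Slamf8 in IN@OMVs against Control, for Slamf8 in OMVs against Control, and for Slamf7, Slamf8 and Slamf9 in IN@OMVs against OMVs.

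Downstream of the receptors, adapters and signalling enzymes gave 1 call. Of 17 listed genes 16 were tested, and 1 was called, in IN@OMVs against Control, a share close to the 6.55% of all tested genes called there: the Src-family kinase gene Fgr fell by a log2 fold change of -0.57 ± 0.13 SE (adjusted p = 0.0339 by edgeR). Fgr stood at 153, 108 and 116 CPM in IN@OMVs 1, 2 and 3, against 205, 184 and 170 CPM in Control. That call ended without IN@OMVs 2 (adjusted p = 0.0873), IN@OMVs 3 (0.119), OMVs 1 (0.057), OMVs 2 (0.054), OMVs 3 (0.0586), Control 1 (0.122), Control 2 (0.107) or Control 3 (0.0781). Fgr is also expressed by neutrophils, whose marker sums were 129 to 196 CPM in IN@OMVs against 772 to 1129 CPM in Control, and the part of neutrophil RNA was not tested. The list had a median log2 fold change of 0.04 in IN@OMVs against Control, -0.05 in OMVs against Control and 0.10 in IN@OMVs against OMVs, where the medians over all tested genes were -0.0024, -0.00049 and -0.0035. DESeq2 called 2 of the list in IN@OMVs against Control and 2 in IN@OMVs against OMVs.

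The SAP-family adapters differed in level. Sh2d1b1, which encodes the adapter EAT-2, averaged 22.2 ± 6.20 CPM in IN@OMVs, 18.8 ± 2.21 CPM in OMVs and 27.3 ± 1.65 CPM in Control (SD, n = 3 each), with no call. Sh2d1a, which encodes SAP and is typical of T and natural killer cells, had 24, 4 and 11 expected counts in IN@OMVs 1, 2 and 3, 16, 1 and 7 counts in OMVs, and 13, 1 and 3 counts in Control. It was highest in library 1 of each group, as the T cell marker sum was. Sh2d1b2 was below the filter.

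No gene of the phagocyte NADPH oxidase list was called among 8 tested, in any comparison, by edgeR, DESeq2 or limma, with 1 at an unadjusted edgeR p under 0.05 in IN@OMVs against Control and 0 in the others. The catalytic subunit gene Cybb averaged 741 ± 116 CPM in IN@OMVs, 869 ± 125 CPM in OMVs and 787 ± 8.06 CPM in Control (SD, n = 3 each). The median log2 fold change of the list was -0.08 in IN@OMVs against Control, -0.09 in OMVs against Control and -0.04 in IN@OMVs against OMVs. Of the 8 genes listed for SLAMF7-dependent phagocytosis edgeR called none, with 1 at an unadjusted p under 0.05 in IN@OMVs against Control and 1 in IN@OMVs against OMVs, where DESeq2 called 1 each and limma 1 and 0. Their medians were -0.01, -0.04 and 0.04 in the same order of comparisons. Itgam came nearest the threshold, at 1479, 1079 and 1165 CPM in IN@OMVs 1, 2 and 3 and 1725, 1734 and 1797 CPM in Control (log2 fold change -0.50 ± 0.13, adjusted p = 0.0512 by edgeR). Itgam is also the gene of a sort marker and is expressed by neutrophils.

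Genes lying near the receptor genes on chromosome 1 were set beside the receptors. Of 14 listed neighbours, all within 177 kb of a SLAM gene, 10 were tested and none was called by edgeR in any of the 3 comparisons, with 4 at an unadjusted p under 0.05 in IN@OMVs against Control and 2 in each of the others. DESeq2 called 1 of them, in IN@OMVs against OMVs, and limma called none. Igsf9, which lies 3.21 kb from Slamf9, had 12.4, 6.61 and 9.08 CPM in IN@OMVs 1, 2 and 3 and 5.17, 4.84 and 5.31 CPM in OMVs (log2 fold change 0.87 ± 0.21, adjusted p = 0.0693 by edgeR). Its IN@OMVs libraries all lay above those in OMVs. Control had 6.73, 6.02 and 6.91 CPM, above all OMVs libraries and overlapping with IN@OMVs, so OMVs was the lowest group, as for Slamf9. The neighbours' median log2 fold change was -0.04 in IN@OMVs against Control, -0.06 in OMVs against Control and 0.03 in IN@OMVs against OMVs.

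The genes whose profiles over the 9 libraries were most like those of the called members were found by the root mean square difference of log2 CPM, each gene centred on its own mean. Slamf7 was nearest to Fgl2, which encodes a fibrinogen-like protein, at 0.088. Next came the immunity-related GTPase gene Ifi47 at 0.108 and the costimulatory receptor gene Cd40 at 0.111. The median distance of Slamf7 to the 10572 genes compared was 0.521. Slamf8 was nearest to the guanylate-binding GTPase gene Gbp6 at 0.125, the T cell attracting chemokine gene Cxcl9 at 0.134 and the cytokine signalling inhibitor gene Socs1 at 0.142, with a median of 0.638. Counts of Gbp6 were fractional in all 9 libraries, so part of its reads was shared with other sequences.

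Slamf9 was nearest to Ifi27l2a, an interferon-inducible gene, at 0.108, to the fucosyltransferase gene Fut4 at 0.109 and to Abhd15 at 0.120, with a median of 0.387. Chosen for their likeness to Slamf9, these genes also had their lowest mean in OMVs, which follows from the choice. Ifi27l2a averaged 138 ± 31.4 CPM in IN@OMVs, 91.8 ± 7.58 CPM in OMVs and 106 ± 3.73 CPM in Control (SD, n = 3 each). The pairs of members can be read on the same scale. Cd48 and Cd84 differed by 0.112 and Slamf7 and Slamf8 by 0.238, while Slamf8 and Slamf9 were farthest apart at 0.58. Genes that vary little lie close on this scale whatever their pattern, and Cd48 and Cd84 had no called difference. The median distances given above were near each member's own SD of log2 CPM, which was 0.54 for Slamf7, 0.665 for Slamf8 and 0.397 for Slamf9. Of the genes near Slamf8, Socs1 had a log2 fold change of 1.56 ± 0.11 in IN@OMVs against Control. Because it was chosen for its likeness to Slamf8 in these libraries, that rise is no separate result. Distances were used only to choose and describe genes, since the libraries of a group share their treatment.

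**Figure D5:**
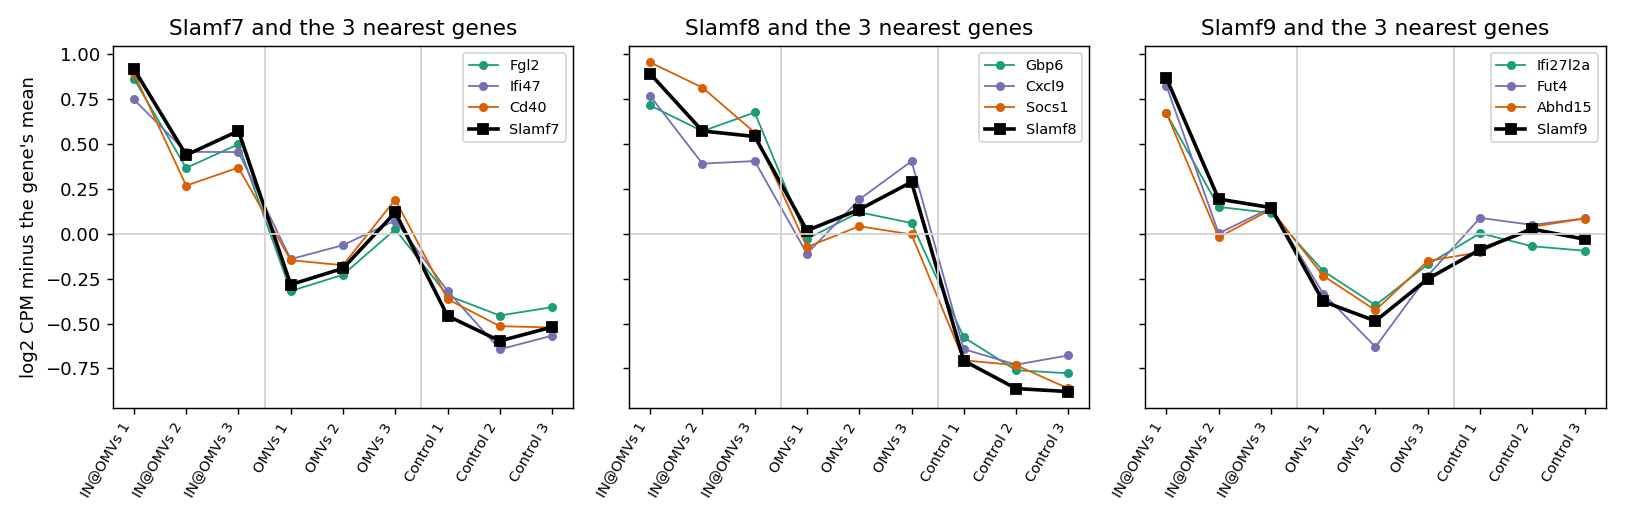
Log2 CPM minus the gene's mean over 9 libraries, for Slamf7, Slamf8 and Slamf9 (black) and the 3 genes nearest to each (colours), by library. The Slamf8 profile steps down through the groups, whereas the Slamf9 profile has its minimum in OMVs 2.

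Markers of other myeloid cells moved with the groups as well. By edgeR, 8 of 9 tested neutrophil markers were lower and 2 of 10 conventional dendritic cell markers were higher in IN@OMVs against Control, beside 3.24% of all tested genes lower and 3.32% higher. By the same test 8 of 9 neutrophil markers were lower and 1 of 10 dendritic cell markers was higher in IN@OMVs against OMVs, beside 1.75% of genes lower and 1.1% higher. The dendritic cell markers summed to 149 to 215 CPM in IN@OMVs, 139 to 165 CPM in OMVs and 161 to 187 CPM in Control. Wdfy4 made up most of each sum, with means of 125, 110 and 122 CPM in the same order of groups. Batf3 averaged 4.58, 2.03 and 1.81 CPM and Xcr1 2.37, 1.36 and 1.19 CPM, and Clec9a fell in that order too. Flt3, Zbtb46, Ccr7 and Itgae had their highest mean in Control. Cd209a, Wdfy4 and Dpp4 were highest in IN@OMVs and lowest in OMVs. Slamf7, Slamf8 and Slamf9 are also found on dendritic cells. The part of these cells in the receptor levels was not tested. No macrophage marker of 11 was called by edgeR in any comparison, with 4 at an unadjusted p under 0.05 in IN@OMVs against Control and 2 in IN@OMVs against OMVs, where DESeq2 called 1 each and limma 1 and 0.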

How the data were processed

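RNA of 9 libraries, 3 per group, was measured by sequencing after TRIzol extraction and oligo-dT preparation, per the labels. The deposited table holds expected counts per gene, with no normalisation apparent. The unit was settled from the values, of which 88.8% to 89.6% per library were whole. The submitters' processing notes name BWA, Bowtie2, RSEM and the builds mm9 and hg19, with no role or version. Sequences and gene order come from GRCm38 and were not joined to any coordinate of the table.

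Expected counts were rounded and fitted with edgeR 4.0.16 (R 4.3.3): TMM scaling, filterByExpr, quasi-likelihood, 1 mean per group over all 9 libraries, and a contrast for each of 3 comparisons. P-values were adjusted by Benjamini-Hochberg over the 13090 genes tested, and genes under 0.05 were called, whatever their fold change. SE was derived as the absolute log2 fold change divided by the square root of the quasi-likelihood F statistic. The 95% intervals were built from that SE. The common biological coefficient of variation was 0.131. Replicate pairs differed by more than sampling noise (chi-square per degree of freedom 2.08 to 42.0). The steps were tested on simulated data. Alternatives were limma 3.58.1 (voom), DESeq2 1.42.0, other scalings and filters, omissions of libraries and a replicate block.

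Same-numbered libraries deviated together in both comparisons with Control (r = 0.12 to 0.53 across genes, each over 0.1). The main fit did not use the numbers as pairs, and they entered only as the replicate block. With the block, 673 genes were called in IN@OMVs against Control. Slamf7 and Slamf8 stayed called there (adjusted p = 0.00431 and 0.000884 by edgeR). The labels do not say what a number marks, and some libraries of unlike number correlated as much (IN@OMVs 2 with Control 3, r = 0.36). In IN@OMVs against OMVs, same-numbered libraries did not all deviate together (r = -0.37 to 0.51). Named genes were the members, the other family receptors, called members of each list (up to 4 per comparison) and the 3 genes nearest to each called member among tested genes of at least 5 CPM; Igsf9, Itgam, Cybb, Sh2d1b1, Sh2d1a and Sh2d1b2 were named after their values were seen. The single dendritic cell markers were also named after their values were seen. Members and lists were chosen with earlier results of these data known. Protein sequences were not used here. A second promoter motif was searched and is not reported here.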

Additional observations from a re-analysis of the deposited data

How the results depend on the processing

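Under 21 alternatives per comparison, the 5 receptors gave 312 values, of which 263 kept their direction and their side of the threshold, 31 lost the call, 6 gained one and 12 changed sign. Slamf7 and Slamf8 in IN@OMVs against Control were called in all 21. The 6 gains were in Slamf7 and Slamf9, with libraries left out. The alternatives scaled to macrophage markers and without both IN@OMVs 1 and OMVs 3 were chosen after seeing the data. The cause of these changes was not tested.

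Genes called in IN@OMVs against Control were 858, but 519 with only those groups fitted, 1475 without replicate 1 of every group, 372 with macrophage scaling (38.2% higher, against 50.6%) and 2416 without both libraries, and 393 to 1635 with 1 library left out. In OMVs against Control they were 55, but 207 by DESeq2, 36 by limma-voom, 115 with only those groups, 20 with the replicate block, 313 without replicate 1, 35 without genes of fractional counts, 8 with macrophage scaling (37.5% higher, against 70.9%) and 610 without both libraries, and 0 to 266 with 1 left out. In IN@OMVs against OMVs they were 373, but 646 by DESeq2, 195 with only those groups, 844 without replicate 1, 199 with macrophage scaling and 898 without both, and 180 to 786 with 1 left out.

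Receptors called in OMVs against Control were 1, but 3 without replicate 1 and 3 without both libraries, and 0 to 2 with 1 left out. In IN@OMVs against OMVs they were 3, but 0 with only those groups in edgeR 1 with the replicate block, and 2 by limma-voom or with macrophage scaling, and 0 to 3 with 1 left out. In that comparison the block gave Slamf8 0.519 (adjusted p = 0.0693 by edgeR) and Slamf9 0.789 (0.0762), and it ended no other receptor call.

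Sign changes (log2) touched no called value. Cd48 in IN@OMVs against Control was -0.0492 to 0.325 with 1 library left out, -0.012 without replicate 1 and -0.0422 without both libraries. Cd48 in OMVs against Control was -0.0705 to 0.121 with 1 left out, -0.0415 with macrophage scaling and -0.0695 without both, and Cd84 was -0.0137 to 0.218 and -0.0126. In IN@OMVs against OMVs, Cd48 was -0.0936 to 0.277 with 1 left out and -0.131 without replicate 1. In the same comparison Cd84 was -0.00718 to 0.268 and -0.0944, Ly9 -0.0635 to 0.216 and -0.118, and Slamf6 -0.229 to 0.0897 with 1 left out. In IN@OMVs against Control, Fut4 was -0.00456 to 0.455 with 1 left out and Abhd15 -0.00518 without replicate 1.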
